A study of Mus musculus with 27 samples.

Results

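Glycosaminoglycan synthesis and sulfation genes were compared across 9 tissues of mice of the inbred C57BL/6 strain, all wild-type males between 6 and 8 weeks of age. They were the mouse genes on a custom Affymetrix glycogene array whose symbol in the platform annotation begins with Ext, Ndst, Hs2st, Hs3st, Hs6st, Glce, Sulf, Chst, Chsy, Chpf, Csgalnact, B3gat, Xylt, Ust or Dse, leaving out Chst4. This gave 25 of the 573 mouse genes compared, through 28 probe sets, and 3 genes with more than 1 probe set were read from that of highest mean log2 intensity. There were 4 lymphoid or blood-forming tissues (bone marrow, thymus, spleen and lymph node) and 5 others (brain, testis, lung, liver and kidney), each with 3 arrays, which makes 27 in all. Whether a tissue's arrays stand for separate animals, or for pooled RNA, is not in the labels, and p-values therefore cover array-to-array spread alone. Of 2 extracellular sulfatases and 6 genes of chondroitin chain assembly that were listed, 0 were among the mouse genes compared. Other roles were covered in part. Measured were 3 of 5 listed linkage region genes, 3 of 4 for N-sulfation and 7 of 12 for the epimerase and O-sulfation of heparan sulfate. For chondroitin and dermatan sulfation it was 4 of 10, and for sulfotransferases of other glycans 3 of 7.

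Glycosaminoglycans are long sugar chains carried by proteoglycans at the cell surface and in the extracellular matrix. Synthesis starts with xylose on a serine of the core protein, a linkage region is completed, and the exostosin enzymes extend heparan sulfate while other enzymes extend chondroitin sulfate. Heparan sulfate is then N-deacetylated and N-sulfated, epimerised and O-sulfated, and the resulting sulfate pattern sets which growth factors, chemokines and proteases bind; in brain such chains take part in axon guidance and in the matrix around neurons.

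The 4 genes that limma called at least 2-fold higher in brain than in the other tissues (Extl2, Hs6st2, Chst2 and Hs3st1) were the largest group called in 1 tissue, although Hs6st2 was as high in spleen and Hs3st1 nearly as high in lung. The 250 bases before their start sites are shown for comparison, from RefSeq on GRCm38.p6, with the GC box GGGCGG, read on either strand, in capitals. The coordinates are chr3:116007199-116007448 on the plus strand for Extl2, chrX:51681603-51681852 on the minus strand for Hs6st2, chr9:95407271-95407520 on the minus strand for Chst2 and chr5:39644632-39644881 on the minus strand for Hs3st1. Extl2 and Hs6st2 each have 2 listed starts, of which the more upstream was taken.
Extl2: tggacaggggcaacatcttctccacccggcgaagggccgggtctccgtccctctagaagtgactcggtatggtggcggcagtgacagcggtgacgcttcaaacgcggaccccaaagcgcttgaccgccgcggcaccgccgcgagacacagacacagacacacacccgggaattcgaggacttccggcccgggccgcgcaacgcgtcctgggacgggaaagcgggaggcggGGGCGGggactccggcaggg
Hs6st2: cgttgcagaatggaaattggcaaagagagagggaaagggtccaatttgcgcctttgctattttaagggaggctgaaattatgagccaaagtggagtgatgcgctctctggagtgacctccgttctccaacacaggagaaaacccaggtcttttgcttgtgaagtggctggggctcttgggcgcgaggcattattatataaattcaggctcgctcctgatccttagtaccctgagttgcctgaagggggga
Chst2: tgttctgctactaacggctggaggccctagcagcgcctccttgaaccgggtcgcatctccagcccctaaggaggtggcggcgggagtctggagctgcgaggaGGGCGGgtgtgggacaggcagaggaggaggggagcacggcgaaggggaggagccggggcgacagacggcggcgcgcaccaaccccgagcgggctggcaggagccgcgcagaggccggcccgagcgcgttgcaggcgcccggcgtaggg
Hs3st1: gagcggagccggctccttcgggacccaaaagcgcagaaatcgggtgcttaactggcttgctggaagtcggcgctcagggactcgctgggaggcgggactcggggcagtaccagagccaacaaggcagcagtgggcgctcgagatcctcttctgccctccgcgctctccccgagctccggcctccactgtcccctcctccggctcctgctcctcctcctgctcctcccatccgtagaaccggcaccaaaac
The sequences of Extl2 and Chst2 hold a GC box, and those of Hs6st2 and Hs3st1 do not. RefSeq promoters were matched for 21 of the 25 genes. GGGCGG occurred on either strand in 13 of these 21 (61.9%) and in 33.0% of 27025 promoters of the same length, CCAAT in 9 of 21 (42.9%) against 34.5%, and TATAAA in 1 of 21, Hs6st2, against 13.0%. The median GC content was 64.8% in the 21 promoters and 52% in all. These matches describe the letters in the window and no binding was measured.

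A gene was called different among the 9 tissues when limma's moderated F test gave a Benjamini-Hochberg adjusted p under 0.05 and the highest and lowest tissue means differed by at least 1 on the log2 scale, which is 2-fold. By this rule 12 of the 25 genes (48%) were called: Hs6st1, Extl2, Hs6st2, Ext1, Hs3st1, Chst2, Hs2st1, Chst5, Ext2, Ndst3, Xylt1 and Chst7. The same rule called 50.1% of all 573 genes, so the share is near the background. The median range over the 25 genes was 0.97 log2, or 1.95-fold, against 1.003 log2, or 2.004-fold, over all genes. Of the 13 genes not called, 10 had an adjusted p under 0.05 with a range below 2-fold, and Chst12 (limma, adjusted p = 0.183), Chst3 (adjusted p = 0.909) and Hs6st3 (adjusted p = 0.210) did not.

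Values are deposited intensities on a linear scale, with no detection calls, and the 839 human probe sets on the array, with a median of 205 and a 95th percentile of 590.1, were used to gauge the signal of probes made for another species. All 9 tissue means lay above that median for 15 of the 25 genes and under it for 2, Hs6st2 and Hs3st3b1. For 18 genes no tissue mean exceeded the human 95th percentile, and for Chst1 and Chst12 all 9 did. The coefficient of variation among the 3 arrays of a tissue had a median of 8.79% over the 25 genes and was at most 41.9%. Each of the 27 arrays had its highest correlation with an array from the same tissue. In whole tissue, fewer cells of a type and less RNA per cell cannot be told apart.

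**Figure D1:**
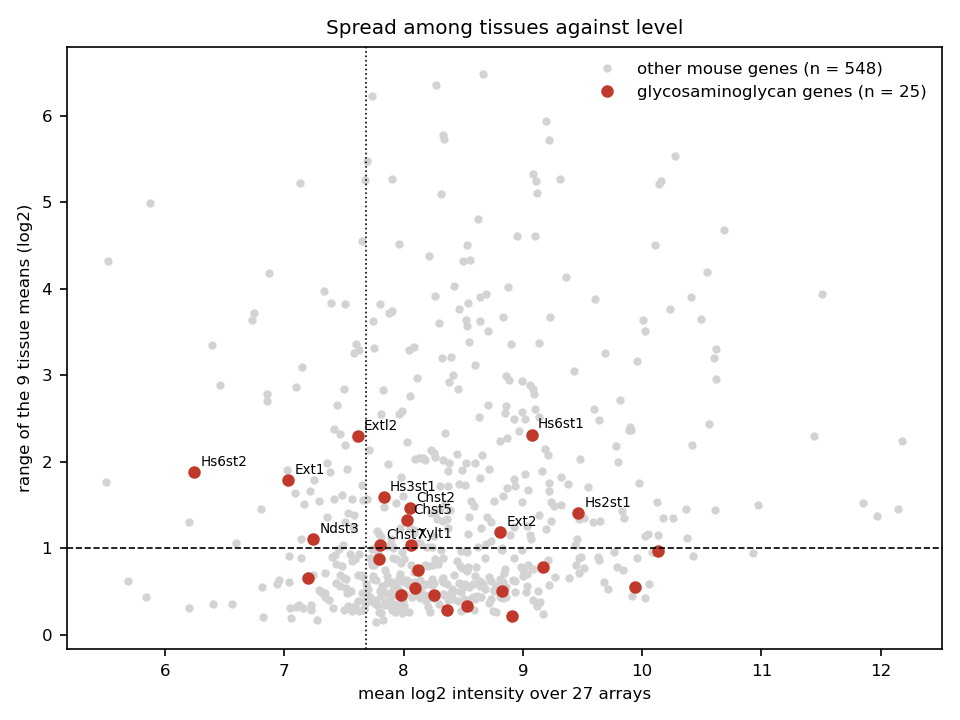
Range of the 9 tissue means (log2) against the mean log2 intensity over 27 arrays, with the 25 glycosaminoglycan genes in red, the other mouse genes in grey, a dashed line at the threshold of 1 and a dotted line at the median of the human probe sets. The 12 called genes are labelled and reach ranges of up to 2.32, below many of the other genes on the array.

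**Figure D2:**
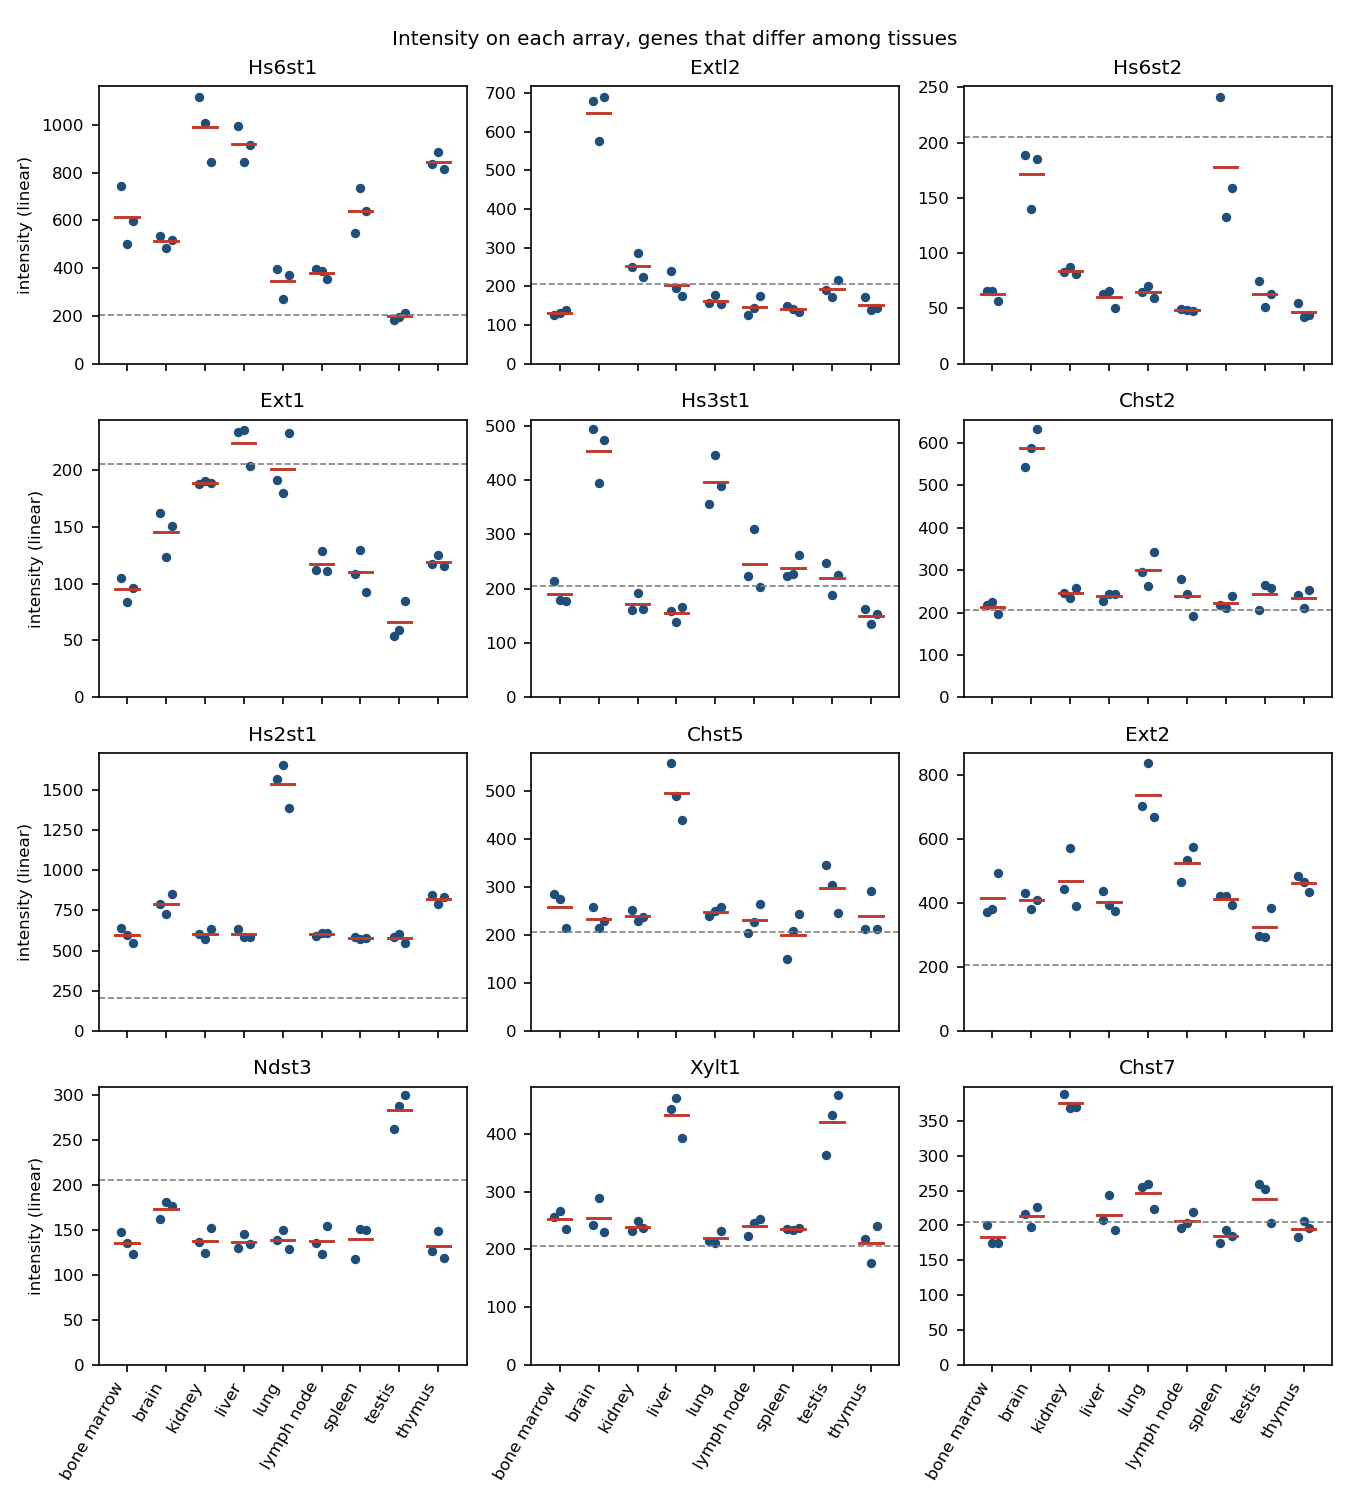
Linear intensity on each of the 3 arrays (points) and their mean (red bars) in 9 tissues, for the 12 genes called different among tissues, with a dashed line at the median of the human probe sets. Extl2 and Chst2 stood alone in brain, Hs2st1 in lung, Chst5 in liver, Chst7 in kidney and Ndst3 in testis, while Hs6st1 was lowest in testis.

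Among the genes of the linkage region, Xylt1, Xylt2 and B3gat3, 1 of 3 was called. Xylt1, which starts the chain by adding xylose to the core protein, read 444, 462 and 393 on the liver arrays and 363, 432 and 467 on the testis arrays, against 218, 175 and 241 in thymus, the lowest tissue. All liver and testis arrays lay above the arrays of the other 7 tissues, of which the highest read 289. Liver exceeded thymus 2.06-fold (limma F test over tissues, adjusted p = 7.22e-09), and liver and testis differed by 1.03-fold, or 0.05 ± 0.11 (SE) on the log2 scale (limma, adjusted p = 0.766). The range lies at the threshold and was 0.997 without liver replicate 2 and 0.98 without thymus replicate 2. Its paralog Xylt2 had its arrays between 214 and 433 and a range of 1.38-fold. B3gat3, the glucuronyltransferase that completes the linkage region, read 883, 762 and 816 in brain and at most 657 elsewhere, so that brain stood apart at 1.48-fold over the mean of the other 8 tissues, under the 2-fold threshold (limma, adjusted p = 1.32e-07).

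Of the 5 exostosin genes, which build the heparan sulfate chain, 3 were called. Extl2, an exostosin-like enzyme that can transfer N-acetylglucosamine or N-acetylgalactosamine to the linkage region, read 679.9, 577 and 690.1 in brain. The next tissue was kidney with 249.5, 285 and 223, followed by liver with 240.2, 195 and 176. On the arrays of the other 6 tissues Extl2 lay between 125 and 216, so the brain arrays stood clear of all others by a wide margin. Brain exceeded the mean of the other 8 tissues by 1.94 ± 0.10 (SE) log2, or 3.84-fold (limma, adjusted p = 6.08e-14), and kidney by 2.57-fold (adjusted p = 9.34e-09). Only brain and kidney had Extl2 means above the median of the human probe sets. It was the single gene of the 25 (4%) called higher in 1 tissue than in each of the other 8 in pairwise tests, a pattern shown by 12% of all genes.

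Ext1 and Ext2 form the polymerase complex of heparan sulfate. Ext1 read 53.8, 59.0 and 85.0 in testis, 104.7, 83.9 and 96.1 in bone marrow and 233, 235 and 203.5 in liver. Testis was the lowest tissue, although its highest array overlapped the lowest bone marrow array, and liver, lung and kidney were the highest. Testis was 2.21-fold below the mean of the other 8 tissues (-1.15 ± 0.11 log2, limma, adjusted p = 4.13e-09), and liver exceeded it 3.46-fold. Liver and lung differed by 1.12-fold (limma, adjusted p = 0.382). In 8 of the 9 tissues the Ext1 mean lay under the median of the human probe sets, and liver was the exception.

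Ext2 read 705, 837 and 670.5 in lung, 467, 534 and 577 in lymph node and 297, 294 and 384 in testis. Every lung array exceeded every other array. Lung was 1.74-fold above the mean of the other 8 tissues, which is under the threshold, and passed it against testis alone (2.28-fold). Ext1 and Ext2 had a Pearson r of 0.56 over the 9 tissue means (0.32 without testis, 0.77 without liver), given as a description over tissues that share the arrays' scaling. Extl1, which can extend the chain, read 346, 322 and 378 in brain and at most 303 elsewhere. Extl3, which adds the first N-acetylglucosamine of a heparan sulfate chain, had 186, 468 and 398 in brain, so that 1 brain array lay among those of the other tissues and the difference of 0.62 ± 0.17 log2 was not called (limma, adjusted p = 0.00295). Without brain replicate 1, Extl3 was called higher in brain.

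Among the N-deacetylase/N-sulfotransferases, which begin the sulfation of heparan sulfate, 1 of the 3 measured was called. Ndst3 read 261, 287 and 299 in testis, 162, 180.2 and 176 in brain and between 118 and 154 in the other 7 tissues. Testis and brain arrays each formed a separate step above the rest. Testis exceeded brain 1.63-fold (limma, adjusted p = 2.2e-05) and the mean of the other 8 tissues by 1.01 ± 0.09 log2, or 2.01-fold (adjusted p = 4.89e-10). The means of brain and the other 7 tissues, 131 to 173, lay under the median of the human probe sets, and the testis mean above it. The testis call sits on the threshold: without spleen replicate 1, testis replicate 2 or testis replicate 3 the difference was 0.996, 0.998 and 0.968. Ndst2 ranged 1.69-fold with 529, 296 and 390.4 in spleen, a spread of the 3 spleen arrays that reached into other tissues, and Ndst4 ranged 1.43-fold.

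Of the 7 measured genes of the epimerase and the O-sulfotransferases of heparan sulfate, 4 were called. Hs6st1, a 6-O-sulfotransferase, read 184, 197 and 211 in testis. In kidney it read 1116, 1007 and 846, in liver 995, 844 and 916, and in thymus 838, 888 and 814. Lung was the next lowest tissue with 396, 272 and 373. The testis arrays lay below every other array, which of the 25 genes held for this 1 (4%) and for 14.5% of all genes. Testis was 3.10-fold below the mean of the other 8 tissues (-1.63 ± 0.11 log2, limma, adjusted p = 4.63e-12), 4.98-fold below kidney and 1.73-fold below lung (adjusted p = 5.33e-05). Kidney was 1.96-fold above the mean of the others (0.97 ± 0.11 log2), just under the threshold, and passed it without kidney replicate 3.

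Hs6st2, a second 6-O-sulfotransferase, showed another pattern. It read 189, 140.0 and 185 in brain, 241, 133 and 159 in spleen, 82.6, 87.7 and 80.8 in kidney and between 42.3 and 74.4 in the remaining 6 tissues. Brain and spleen arrays overlapped each other and lay above all others, and all tissue means stayed under the median of the human probe sets. The differences from the other 8 tissues were 1.31 ± 0.13 log2 (2.48-fold, limma, adjusted p = 5.13e-09) in brain and 1.33 ± 0.13 log2 (2.52-fold, adjusted p = 5.16e-09) in spleen, and spleen and brain differed by 0.02 ± 0.17 log2 (adjusted p = 0.927). Over the 9 tissue means Hs6st1 and Hs6st2 had r = 0.10 (-0.01 to 0.25 with 1 tissue left out at a time). The third member, Hs6st3, was the flattest gene of the 25, with all 27 arrays between 396 and 571 and a range of 1.16-fold.

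Hs3st1, the 3-O-sulfotransferase known for making the antithrombin-binding site of heparin, read 493, 394 and 474 in brain and 355, 445 and 389 in lung. Lymph node followed with 224, 310.1 and 202, and thymus was lowest with 162, 136 and 153. Brain and lung overlapped and stood above the other 7 tissues. Brain exceeded the mean of the other 8 by 1.11 ± 0.11 log2, or 2.16-fold (limma, adjusted p = 4.58e-09), and lung by 0.89 ± 0.11, or 1.86-fold, which is under the threshold. Brain and lung differed by 0.19 ± 0.14 log2 (adjusted p = 0.284).

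Hs2st1, the only 2-O-sulfotransferase of heparan sulfate, read 1567, 1655 and 1386 in lung. Thymus gave 847, 791 and 834 and brain 792, 731 and 851. In the other 6 tissues it lay between 546 and 641, so lung stood alone, with thymus and brain on a lower step of their own. Lung exceeded the mean of the other 8 by 1.26 ± 0.06 log2, or 2.39-fold (limma, adjusted p = 2.58e-14), and thymus by 1.86-fold. With quantile normalization the lung difference was 0.97 and the call ended, and with the mean of both probe sets it was 1.94 log2, or 3.83-fold. Glce, the epimerase that acts beside it, was also highest in lung with 321, 326 and 279, but ranged 1.38-fold and was not called. Hs3st3b1, another 3-O-sulfotransferase, was highest in testis with 204, 201 and 180.3 and ranged 1.58-fold.

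Of the 4 measured chondroitin sulfotransferases 1 was called. Chst7, a chondroitin 6-O-sulfotransferase, read 388, 369 and 370.3 in kidney and at most 259 on any other array. Kidney stood clear of all tissues but exceeded the mean of the others by 0.85 ± 0.08 log2, or 1.80-fold, under the threshold, and lung by 1.53-fold (limma, adjusted p = 3.0e-05). Its call among the 9 tissues rests on a range of 2.06-fold between kidney and bone marrow. Chst3, which also acts at the 6-O position, had all arrays between 241 and 459 with overlapping tissues and a range of 1.22-fold. Chst11 and Chst12, the 4-O-sulfotransferases, ranged 1.26-fold and 1.47-fold, and the 3 testis arrays of Chst12 alone spread from 675 to 1569.

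Of the 3 measured carbohydrate sulfotransferases that act on keratan sulfate and other glycans, 2 were called. Chst2, which sulfates N-acetylglucosamine, read 543, 588 and 633 in brain and 297, 262 and 342 in lung, with the other 7 tissues between 193 and 279.9. The brain arrays lay above all others. Brain exceeded the mean of the other 8 by 1.29 ± 0.09 log2, or 2.45-fold (limma, adjusted p = 3.68e-11), was called above 7 tissues and exceeded lung by 1.97-fold, just under the threshold. Chst5, from the same family, read 558, 489.6 and 439 in liver, 346, 304 and 245 in testis and 149, 209 and 243 in spleen. All liver arrays exceeded all others, and liver was above the mean of the other 8 by 1.04 ± 0.12 log2, or 2.05-fold (adjusted p = 1.40e-07). Without liver replicate 1 the difference was 0.95 and the call was lost. Chst1, a keratan sulfate sulfotransferase, read 1055, 2193 and 1401 in testis and 1624, 1582 and 1539 in brain, with overlapping tissues and a range of 1.95-fold.

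**Figure D3:**
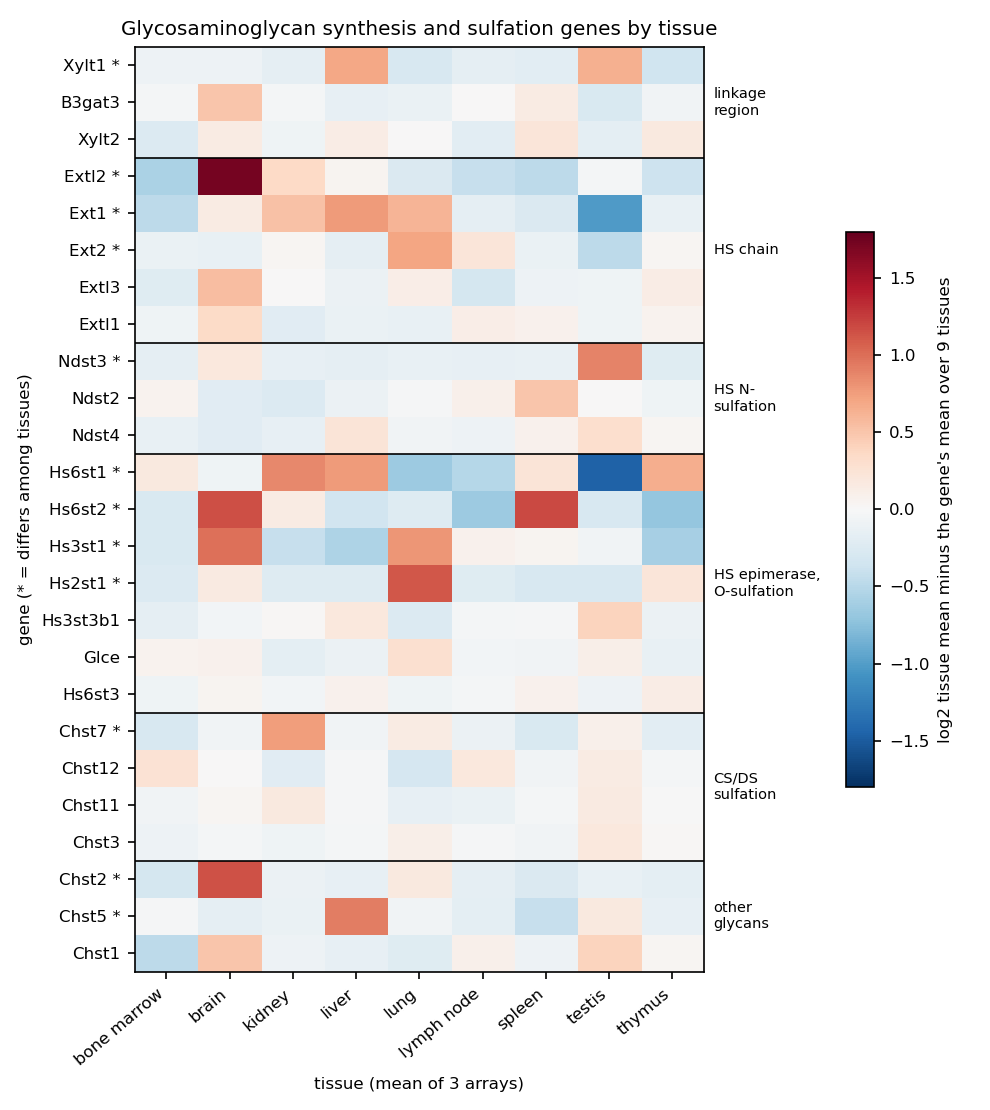
Log2 tissue mean of each of the 25 genes minus that gene's mean over the 9 tissues, in rows grouped by role (HS, heparan sulfate; CS/DS, chondroitin and dermatan sulfate), with asterisks on the 12 called genes. Among the darkest cells are Extl2, Hs6st2, Chst2 and Hs3st1 in brain, Hs2st1 in lung, Hs6st2 in spleen and the low value of Hs6st1 in testis.

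Read by tissue, brain had the most genes called higher, 4 of 25 (16%: Extl2, Hs6st2, Chst2 and Hs3st1), where 4.54% of all genes were called higher, and none lower, where 10.3% of all genes were. The median brain difference was 0.09 log2 over the 25 genes and -0.07 over all genes, and 16 of 25 (64%) lay above 0 against 39.97% of all genes. Brain was the highest tissue for 7 of 25 genes (28%) and for 11.2% of all genes. Of the 5 neuron and glia markers measured, 1 was called higher in brain, Ugt8a, which was called higher in kidney too. The summed intensity of the 5 was 3666 to 4275 in brain and 2098 to 3792 elsewhere. Of 4 macrophage and monocyte markers, 3 were called lower in brain (Mrc1, Clec7a and Ccr2), with a sum of 173 to 386. The same 3 were called lower in kidney, with a sum of 350 to 492. The part of these cells in the brain differences was not tested.

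In testis 1 gene, Ndst3, was called higher (4%), where 3.14% of all genes were, and 2, Hs6st1 and Ext1, lower (8%), where 13.3% of all genes were. The median difference was -0.03 log2 over the 25 genes and -0.07 over all. No spermatid marker was measured, so the testis label was not checked against markers of germ cells. Brain and testis, a pair named after the values were seen, differed most often: 6 of 25 genes (24%) were called higher in brain than in testis, where 8.38% of all genes were, and none was called higher in testis, where 2.97% of all genes were. These 6 were Extl2 (3.37-fold), Hs6st2 (2.73-fold), Hs6st1 (2.59-fold), Chst2 (2.43-fold), Ext1 (2.24-fold) and Hs3st1 (2.07-fold).

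**Figure D4:**
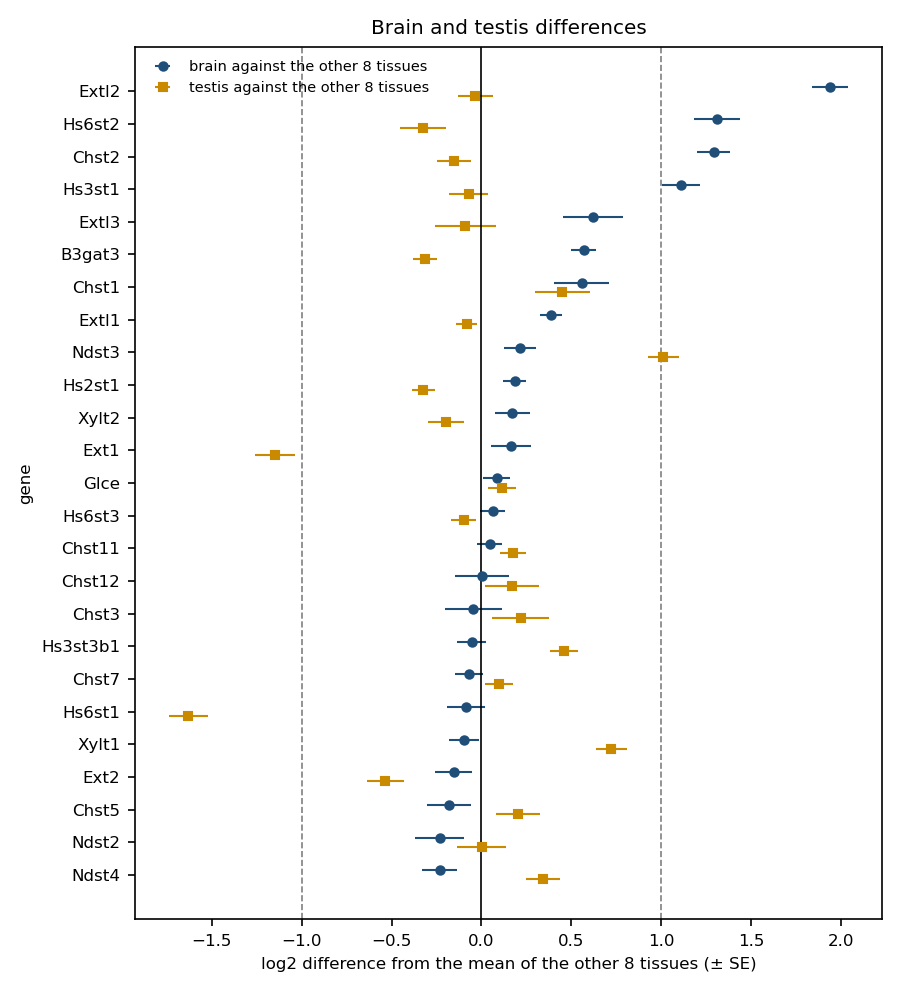
Log2 difference of brain (circles) and testis (squares) from the mean of the other 8 tissues for each of the 25 genes, with bars of 1 SE from limma and dashed lines at the threshold of 1 in either direction. Extl2, Hs6st2, Chst2 and Hs3st1 lie beyond it in brain, and Ndst3, Ext1 and Hs6st1 in testis.

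Liver, lung and spleen each had 1 gene called higher (4%), where 4.71%, 8.9% and 9.77% of all genes were, and none lower, where 8.9%, 1.05% and 1.05% were: Chst5 in liver, Hs2st1 in lung and Hs6st2 in spleen. In liver all 3 measured hepatocyte markers were called higher, with a summed intensity of 7305 to 10735 against 958 to 1416 elsewhere. In lung 4 of 5 endothelial markers were called higher, with sums of 6824 to 7804 against 800.1 to 2432 elsewhere, both measured epithelial markers were (10672 to 19449.9 against 629 to 933), and the mast cell marker Kit and 1 of 4 stroma markers (Dcn) were too. In spleen 3 of 4 B cell markers were called higher, with sums of 8450.4 to 8864 against 2359.9 to 8981 elsewhere, lymph node included. Also called higher in spleen were 2 of 3 T cell markers (Il7r and Ccr7, sums of the 3 at 2642 to 3236), 2 of 4 macrophage markers (Mrc1 and Clec7a, 2331 to 2619) and 2 of 4 stroma markers (Fmod and Col14a1, 2554 to 3347), and none of these 3 sums was the highest of the 9 tissues. The part of these cell types in the differences was not tested.

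In bone marrow, kidney, lymph node and thymus limma called none of the 25 genes in either direction. Of all genes, 9.6%, 12.6%, 11.7% and 6.81% were called there. At any size of difference, 11, 11, 9 and 9 of the 25 had an unadjusted limma p under 0.05. The same held for 52.4%, 53.2%, 54.8% and 45% of all genes. The adjusted p was under 0.05 for 8, 9, 5 and 8 of the 25, whose differences stayed below 2-fold. The kidney epithelium marker measured, Muc1, was not called in kidney. Of the 11 in bone marrow with an unadjusted limma p under 0.05 all were lower. Bone marrow was the lowest tissue for 6 of 25 genes (24%) and for 13.96% of all. Bone marrow differences lay above 0 for 4 of 25 genes (16%) and for 38.4% of all genes. The split of unadjusted p-values by direction and the counts by adjusted p, here and below, were made for the 25 genes alone. They therefore have no share of all genes to be read against. Set against the other 5 tissues together, bone marrow, lymph node, spleen and thymus gave none called by limma, where 13.4% of all genes were. At any size of difference, 15 had an unadjusted limma p under 0.05 (69.5% of all genes), and 14 an adjusted p under 0.05. Of the 15, 12 were lower. The largest of these was Extl2, lower by 0.83 log2, a difference to which its brain peak contributes. The log2 means of Extl2 were 9.34 in brain and 7.35 to 7.97 in kidney, liver, lung and testis. In the lymphoid and blood-forming tissues they were 7.04 to 7.23.

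For 9 of the 25 genes (36%) all 3 arrays of the highest tissue lay above the other 24 arrays, as for 37.7% of all genes. In brain these were Extl2, Chst2, B3gat3 and Extl1, in lung Hs2st1 and Ext2, in liver Chst5, in kidney Chst7 and in testis Ndst3. Other partner pairs were compared over the 9 tissue means, and again with 1 tissue left out at a time, a check chosen for all pairs after seeing the data. Extl2 and Extl3 had r = 0.81, which rested on brain and was 0.29 over the other 8 tissues, and Glce and Hs2st1 had r = 0.65, which rested on lung and was -0.06 without it. Chst3 and Chst7 had r = 0.08 and 0.82 without kidney, but the tissue means of Chst3 were not told apart (limma F test, adjusted p = 0.909). For Chst11 and Chst12 r was -0.03 (-0.50 without lung, 0.32 without kidney), and the tissue means of Chst12 were not told apart either (limma F test, adjusted p = 0.183). For Xylt1 and Xylt2 r was -0.12 (-0.44 without liver, 0.15 without testis).

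Second mouse probe sets existed for 3 genes and followed the first over the 9 tissue means, with r = 0.97 for Extl2, 0.96 for Hs2st1 and 0.94 for B3gat3. The second Extl2 probe set was highest in brain at 565 ± 83.4 (SD, n = 3) with a range of 6.98-fold, and the second Hs2st1 probe set was highest in lung at 2040.3 ± 89.9 (SD, n = 3) with a range of 9.73-fold. B3gat3 reached a range of 2.28-fold on its second probe set, again with brain highest. Human probe sets for 11 of the called genes, 13 in number, had a median r of -0.01 with the mouse values, and 0 of 13 peaked in the same tissue. For 11 of the genes not called, 16 human probe sets had a median r of 0.14 and 2 peaked in the same tissue.

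Genes that supply donors, carry the chains or degrade them were measured on the same arrays. Of 6 genes of the linkage region and donor supply, 4 were called among tissues: Ugdh, which makes UDP-glucuronic acid, Ugp2, which makes UDP-glucose, and Papss1 and Papss2, which make the sulfate donor. In testis Ugdh read 123 ± 13.9 (SD, n = 3), 6.62-fold below the other tissues (limma, adjusted p = 9.21e-14), and Papss1 was 2.57-fold lower. In liver 3 of the 6 were higher, Ugdh 3.80-fold, Ugp2 3.10-fold and Papss2 2.63-fold. In kidney 3 were higher too, Papss2 3.11-fold, Ugdh 2.14-fold and Papss1 2.07-fold. None of the 6 was called in the remaining 6 tissues, brain included, where Papss1 was at 1.94-fold. Of all genes, 50.1% were called among tissues, 13.3% were lower in testis, 4.71% higher in liver and 6.46% higher in kidney.

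Of 11 degradation genes 6 were called among tissues (Gusb, Galns, Hexa, Glb1, Hyal1 and Hyal2), where 50.1% of all genes were. The glucuronidase Gusb was 3.21-fold lower in testis and 2.54-fold lower in brain, and 2.18-fold higher in lymph node. In kidney the sulfatase Galns was 3.35-fold and the galactosidase Glb1 3.48-fold higher. In bone marrow the hexosaminidase subunit Hexa was 2.18-fold and the hyaluronidase Hyal1 2.19-fold higher, and in lung Hyal2, another hyaluronidase, was 2.16-fold higher. No other degradation gene was called against the mean of the other tissues. Of all genes, 13.3% were lower in testis, 10.3% lower in brain and 11% higher in lymph node. Higher in kidney, bone marrow and lung were 6.46%, 5.76% and 8.9% of all genes.

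Of 22 proteoglycan core genes 9 were called among tissues (Sdc1, Gpc1, Gpc4, Dcn, Bgn, Fmod, Lum, Srgn and Cd44), where 50.1% of all genes were. In brain none of the 22 was higher and 4 were lower, where 10.3% of all genes were: Srgn (6.47-fold), Bgn (3.60-fold), Cd44 (3.12-fold) and Dcn (2.97-fold). Testis had 3 lower (13.3% of all genes), liver 2 lower (8.9%) and kidney 1 higher (6.46%) and 2 lower (6.11%). Lymph node had 6 higher (11% of all genes), with Dcn at 4.75-fold and Srgn, the granule proteoglycan of blood cells, at 4.05-fold. Lung had 4 higher (8.9%), among them the small leucine-rich proteoglycan Bgn at 9.60-fold, and spleen 4 higher (9.77%). Thymus had 2 higher (5.41%), and bone marrow 2 higher (5.76%, Cd44 at 5.26-fold and Srgn at 3.98-fold) and 3 lower (3.84%, Dcn at 8.09-fold, Bgn at 6.05-fold and Fmod at 2.83-fold).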

How the data were processed

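The authors deposited linear intensities of 1813 probe sets, 1 value for each of the 27 arrays. The labels name total RNA and biotin labelling. How they were summarised, background-corrected and scaled is not given in the sources used here. Array medians were 221 to 244, and values were kept as deposited.

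Names came from the platform annotation (1563 had 1 symbol, 2 several and 248 none) and matched by gene identifier to RefSeq (GRCm38.p6), which updated 1 symbol. The 22 named control probe sets were left out. The 702 mouse probe sets were reduced to 573 genes by keeping, per gene, that of highest mean. Intensities under 16 were raised to 16 (no value of the 25 genes) and log2 taken. limma 3.58.1 in R 4.3.3 (lmFit, eBayes) was fitted over all arrays with 1 coefficient per tissue, and p-values were adjusted over all 573 genes within each contrast. Folds are powers of 2 of log2 differences, and the mean of the other 8 tissues weights them equally. Precision is limited by how many arrays there are.

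The members, gene lists and tests were chosen with earlier results of these data known. Genes were named as the up to 12 called members of largest range and up to 3 called per tissue and direction. The 3 flattest above the median level were named too, the other members were given by range, and the other pathway genes by list. Outside this rule, array values were printed for members such as B3gat3, Extl1, Extl3, Ndst2, Glce, Hs3st3b1 and Chst1. Brain differences were printed for B3gat3 and Extl3. Sets of markers of 13 cell types were listed to check the tissues, and that of spermatids had 0 genes measured. On data simulated for kidney against the other 8 tissues with 573 genes, all 50 genes changed by 1.5, all 50 by 2 and all 50 by 3 log2 were called, 0 of 50 changed by 0.5 and 0 of 373 unchanged. The rule asks for at least 1 log2, which all but fixed the result at 0.5. No size between 0.5 and 1.5 was simulated, so the simulation does not bear on calls near the threshold. Alternatives were quantile normalization, leaving out the 191 genes of lowest mean, a floor of 64, the mean of all probe sets, the title number as a block and leaving out each array.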

Additional observations from a re-analysis of the deposited data

How the results depend on the processing

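No direction reversed under the alternatives run. With quantile normalization, which moved an array's median over genes by up to 0.11 log2, kidney had 1 gene called (Hs6st1), liver 2 (Chst5 and Hs6st1), lung 0 (Hs2st1 at 0.97) and the pairwise rule 2 (Chst2 and Extl2), and Ndst3 in testis (0.97) was not called; the cause was not tested. Leaving out the genes of lowest mean kept 17 of the 25 for testing, and by that construction 6 were called among tissues, 1 in brain, 0 in spleen, 1 in testis and 0 by the pairwise rule. With the mean of all probe sets the pairwise rule gave 2 genes (Extl2 and Hs2st1).

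Leaving out 1 array at a time gave 11 to 13 genes among tissues, 4 to 5 in brain, 2 to 3 in testis, 0 to 1 in kidney (1 without kidney replicate 3), 0 to 1 in liver (0 without liver replicate 1) and 1 to 2 by the pairwise rule (2 without brain replicate 1 or lung replicate 3). With the title number as a replicate block, 12 genes were called among tissues and no call changed. Arrays with the same number in 108 pairs of tissues had residuals with a median r of 0.00 (-0.37 to 0.55), 25 pairs over 0.1, and 11 of 27 arrays correlated best with their own number, so the numbers were not taken to pair the arrays. Signal over background limits the low genes: 14 values of the 25 genes lay under 64, and with that floor Hs6st2 was 1.16 log2 higher in brain and 1.18 in spleen.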
